A study of Mus musculus with 30 samples.

Results

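The 3 hairpin genes of the neural microRNA miR-9, Mir9-1, Mir9-2 and Mir9-3, were followed in the small RNA of mouse prefrontal cortex. They were chosen by name as 3 of the 2202 miRNA hairpins of the GENCODE M21 annotation, and every read whose whole sequence matched one of them exactly in the sense direction was counted. The samples were cortex of 6-month-old 5xFAD mice, the AD group, and of WT mice. The labels name the tissue only as cortex, and the study's methods describe males and females of a C57BL/6J line, hemizygous for the transgenes in AD and without them in the WT littermates. The sample titles give no sex for a library, and no test here accounts for it. The 5xFAD transgenes raise amyloid production and are driven by a promoter active mainly in neurons, so that the AD group models amyloid load and not the whole human disease. All groups shared Trizol extraction, excision of RNA of 15 to 50 nt from a gel and the same library kit. The 7 WT and 7 AD traditional-seq libraries were made from untreated RNA. The RNA of the 8 WT and 8 AD PANDORA-seq libraries was treated first with T4PNK, which makes RNA termini ligatable, and then with AlkB, which strips base methylations that block reverse transcription.

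A miRNA hairpin is cut by Drosha in the nucleus and by Dicer in the cytoplasm into a duplex of its 5p and its 3p arm. One arm of the duplex usually stays in an Argonaute protein, where bases 2 to 8, the seed, select target mRNAs, and the other arm is mostly degraded. miR-9 is abundant in brain, where it is made in neural progenitors and in neurons and is known for limiting progenitor proliferation and promoting neuronal differentiation. Both of its arms are loaded to some degree: miR-9-5p and miR-9-3p, the latter also written miR-9*, are known to target different components of the REST repressor complex, which keeps neuronal genes silent in other cells.

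The 3 hairpins lie on 3 chromosomes of GRCm38, each on the plus strand. Mir9-1 is at chr3:88215598-88215686, in an intron of the long non-coding RNA gene Gm3764, and a miRNA gene annotated on the opposite strand, Gm25641, overlaps it. Mir9-2 is at chr13:83738814-83738885 and overlaps exons of 2 transcripts of the long non-coding RNA gene C130071C03Rik. Mir9-3 is at chr7:79505264-79505353, in an intron of its host gene Mir9-3hg. Because only sense matches were counted and 0 of the miR-9 reads also matched another hairpin, the overlap at Mir9-1 took no reads away. The RefSeq hairpins are shown here to make visible that the arms, in capitals, are the same in the 3 hairpins while the loop between them differs.
Mir9-1: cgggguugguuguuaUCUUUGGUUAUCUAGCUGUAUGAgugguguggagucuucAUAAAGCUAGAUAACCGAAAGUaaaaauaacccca
Mir9-2: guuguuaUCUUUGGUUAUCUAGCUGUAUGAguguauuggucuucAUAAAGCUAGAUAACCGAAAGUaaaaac
Mir9-3: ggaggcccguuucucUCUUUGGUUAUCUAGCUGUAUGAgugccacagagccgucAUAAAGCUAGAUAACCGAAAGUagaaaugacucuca

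The hairpins are 89, 72 and 90 nt long, and their loops 16, 14 and 16 nt. The reference mature sequences are 23 nt for the 5p arm and 22 nt for the 3p arm, with the seed in capitals, and the seeds of the arms have no common sequence.
miR-9-5p: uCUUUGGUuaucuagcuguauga
miR-9-3p: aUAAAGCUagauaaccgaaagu

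Since the arms are identical, nearly all reads could not be given to 1 of the 3 genes. Of the miR-9-5p reads, at least 99.797% in each library matched all 3 hairpins, and of the miR-9-3p reads between 90.0% and 99.5%. Reads that reach into the loop or the flanks can be assigned. Over the 14 traditional-seq libraries, 20 miR-9-5p reads matched Mir9-1 alone, 68 Mir9-2 alone and 282 Mir9-3 alone. Over the 16 PANDORA-seq libraries the corresponding sums were 683, 614 and 593. Each of the hairpins thus had reads that matched it alone among the hairpins in both protocols. Matches to other RNA or to the rest of the genome were not checked. These few reads extend beyond the bases that the hairpins share and do not measure how much mature miR-9 each gene made. Among miR-9-3p reads of the PANDORA-seq libraries, 240 matched Mir9-1 alone. These include a 15-nt read that matches the Mir9-1 loop, which the midpoint rule counts to the 3p arm and which made up 2.13% ± 1.95 (SD, n = 16) of the miR-9-3p reads in PANDORA-seq and 0.0056% ± 0.021 (SD, n = 14) in traditional-seq.

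The traditional-seq libraries held 9370669 to 17053412 reads and the PANDORA-seq libraries 54926347 to 105876141. Reads that matched any miRNA hairpin exactly were 42.2% ± 5.67 (SD, n = 14) of all reads in traditional-seq and 2.87% ± 1.11 (SD, n = 16) in PANDORA-seq, so that levels relative to all reads are not on the same footing in the protocols. The marker hairpins of neurons, miR-124, miR-128 and miR-137, were detected in every library, with 0 of the 6 hairpins at 0, and their sum was 55429 to 262406 RPM (reads per 1000000 reads of the library) in traditional-seq and 1055 to 3977 RPM in PANDORA-seq. Reads of 43 to 45 nt, which enter the denominator of RPM, were 15.5% ± 3.19 of all reads in WT PANDORA-seq (11.2% to 21.5%, SD, n = 8) and 4.95% ± 2.90 in AD PANDORA-seq (2.13% to 10.7%, SD, n = 8), without overlap. In 2 libraries, replicates 1 and 3 of the AD PANDORA-seq group, miR-9-5p carried a 3′ tail that was nearly absent elsewhere (described with the tails), and the miR-9 results they move are given with and without them. The study counts its replicates as mice, while the labels number the libraries and name no mouse, so the p-values measure the spread between libraries, which may be in part technical. In bulk cortex, fewer cells of a type and less RNA per cell cannot be told apart.

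In traditional-seq, miR-9-5p did not differ between the genotypes beyond the spread of the libraries. In WT its lowest, median and highest levels were 20755, 32308 and 51214 RPM, with a mean of 36351 ± 11011 (SD, n = 7). In AD they were 20026, 31288 and 53745 RPM, with a mean of 35179 ± 14760 (SD, n = 7). The groups overlapped over nearly their whole range. The AD to WT ratio of geometric means was 0.932, the log2 difference -0.10 ± 0.29 (SE), and the 2-sided exact permutation test over all 3432 splits gave p = 0.727 (adjusted p = 0.961 over 26 genotype comparisons). miR-9-3p, with 2846 to 12378 reads per library, overlapped as well. Its lowest, median and highest levels were 254, 603 and 1144 RPM in WT and 265, 547 and 1000 RPM in AD, and the log2 difference was -0.01 ± 0.38 (SE, exact permutation p = 0.966, adjusted p = 0.966). 

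In PANDORA-seq, miR-9-5p again overlapped between the genotypes. It ran from 540 over a median of 1660 to 2773 RPM in WT, with a mean of 1729 ± 742 (SD, n = 8), and from 614 over 1893 to 3922 RPM in AD, with a mean of 2033 ± 1059 (SD, n = 8). The log2 difference was 0.19 ± 0.40 (SE, exact permutation over 12870 splits, p = 0.635, adjusted p = 0.961), and 2 AD libraries lay above every WT library. Relative to reads of 15 to 40 nt, which leaves out the long reads that separated the genotypes, the log2 difference was -0.0064 (exact permutation p = 0.989).

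In PANDORA-seq the 3p arm had the higher mean in AD, and the difference missed the test. In WT, miR-9-3p lay at 1.87, 8.44 and 9.18 RPM (lowest, median, highest; mean 6.68 ± 2.95 SD, n = 8). In AD it lay at 1.91, 10.6 and 63.5 RPM (mean 17.8 ± 19.6 SD, n = 8). The values rest on 105 to 3847 reads per library. The AD libraries 1, 4, 6 and 7, at 63.5, 19.7, 21.4 and 12.4 RPM, lay above every WT library, and the other AD libraries lay within the WT range. The geometric mean was 1.96-fold higher in AD, a log2 difference of 0.97 ± 0.60 (SE), with an exact permutation p = 0.129 and an adjusted p = 0.913. Without AD replicate 3, the lowest AD library, the log2 difference was 1.34 and the unadjusted exact permutation p = 0.0174. Without AD replicate 1, the highest, the log2 difference was 0.62 and the exact permutation p = 0.259. With both left out it was 0.99, with an unadjusted exact permutation p = 0.0373. Relative to reads of 15 to 40 nt it was 0.77 (exact permutation p = 0.236), and relative to hairpin reads 0.66 (exact permutation p = 0.140, adjusted p = 0.913). The erythroid marker hairpins (miR-144, miR-451 and miR-486) were also highest in AD replicates 1 and 6, where they summed to 1637 and 729 RPM, against 84.3 to 343 RPM in the other 14 PANDORA-seq libraries, with 0 or 1 of the 4 hairpins at 0 in each library. By genotype they ran from 84.3 to 275 RPM in WT and from 91.9 to 1637 RPM in AD. In traditional-seq they ran from 131 to 346 RPM in WT and from 98.6 to 345 RPM in AD. Only their sum was taken per library, which does not show which member rose. Between the protocols, the log2 share of hairpin reads changed by 5.13 for Mir3107/Mir486 5p and by -0.043 for miR-451a. The part of the erythroid markers in the miR-9-3p result was not tested. The neuron marker hairpins did not set AD replicate 1 apart by RPM, where it was at 1426 RPM and AD replicate 3 lower at 1055 RPM. By genotype they ran from 1504 to 3977 RPM in WT and from 1055 to 2942 RPM in AD. By share of hairpin reads AD replicate 1 was the lowest, at 25742 per 1000000, against 58284 to 139643 in the other 15 PANDORA-seq libraries, with 0 of the 6 hairpins at 0. The same library was lowest by that share for the oligodendrocyte markers (miR-219, miR-338), at 1042 (next lowest 1189). For the microglia and blood leukocyte markers (miR-142, miR-146, miR-155, miR-223) it was at 400 (next lowest 644). For the vessel markers (miR-126, miR-143, miR-145) it was at 1144 (next lowest 1894). Each set had 2 hairpins at 0 there. Its hairpin reads were 5.54% of all reads, against 1.51% to 4.75% in the other 15 libraries. The medians of the neuron marker share were 95991 in WT and 70998 in AD in PANDORA-seq. In traditional-seq their order was reversed, with 228026 in WT and 243382 in AD. The part of the neuron markers in the miR-9-3p result was not tested either. Not every neuron marker followed their sum. The main miR-124 arm, a small part of it, had the higher mean RPM in AD in PANDORA-seq (given with the ranks).

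**Figure D1:**
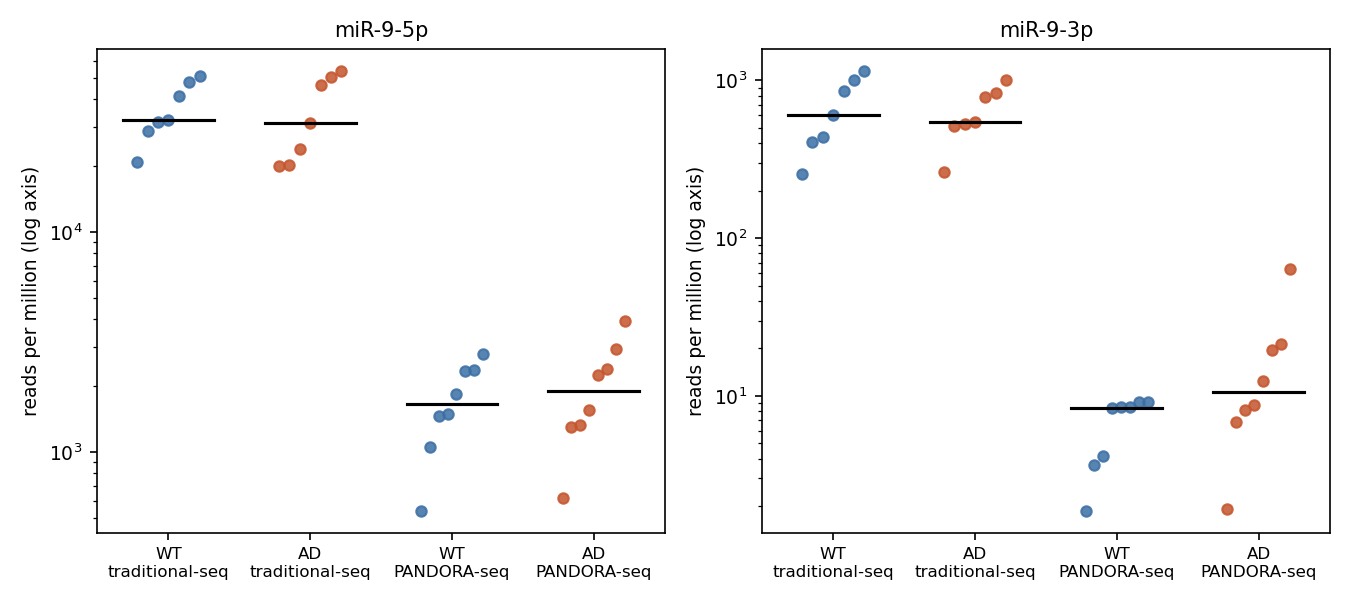
RPM for miR-9-5p and miR-9-3p on log axes, with 1 point per library (7 per genotype in traditional-seq, 8 in PANDORA-seq) and a line at the group median. The genotypes overlap in every pair of groups, while each PANDORA-seq library lies below each traditional-seq library. For miR-9-3p in PANDORA-seq, 4 AD libraries lie above the highest WT library at 9.18 RPM.

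When all miRNA arms were fitted together with edgeR's quasi-likelihood test, miR-9 was not among the arms that changed with genotype. In traditional-seq 0 of 452 arms tested were called (0%), for which a fold change above 2 and an adjusted p below 0.05 were needed. At an unadjusted p under 0.05 there were 8, and edgeR's likelihood ratio test and DESeq2 also called 0. miR-9-5p had a log2 fold change of 0.03 ± 0.20 (SE) and miR-9-3p of 0.05 ± 0.29, both with an adjusted p = 0.999 in edgeR. In PANDORA-seq 1 of 491 arms was called (0.204%), and it was no miR-9 arm, while 64 had an unadjusted p under 0.05. miR-9-5p had a log2 fold change of 0.03 ± 0.27 (SE, edgeR adjusted p = 0.986). miR-9-3p had one of 1.29 ± 0.53 (SE), with an unadjusted p = 0.0256 and an edgeR adjusted p = 0.321, and the value was 0.53 without AD replicate 1 and 0.66 without AD replicates 1 and 3 (edgeR adjusted p = 0.535 for the latter). The difference of the genotype effect between the protocols, tested over 642 arms of which 0 passed (0% called, 44 at an unadjusted p under 0.05, edgeR's quasi-likelihood test), was 0.32 ± 0.36 (SE) on the log2 scale for miR-9-5p, with an edgeR adjusted p = 0.847. For miR-9-3p it was 1.53 ± 0.63 (SE, unadjusted p = 0.0202, edgeR adjusted p = 0.535). Without AD PANDORA-seq replicate 1 the miR-9-3p value was 0.60 ± 0.50 (SE, unadjusted p = 0.237 in edgeR), and without replicates 1 and 3 it was 0.91 ± 0.46 (SE, unadjusted p = 0.0576 in edgeR).

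**Figure D2:**
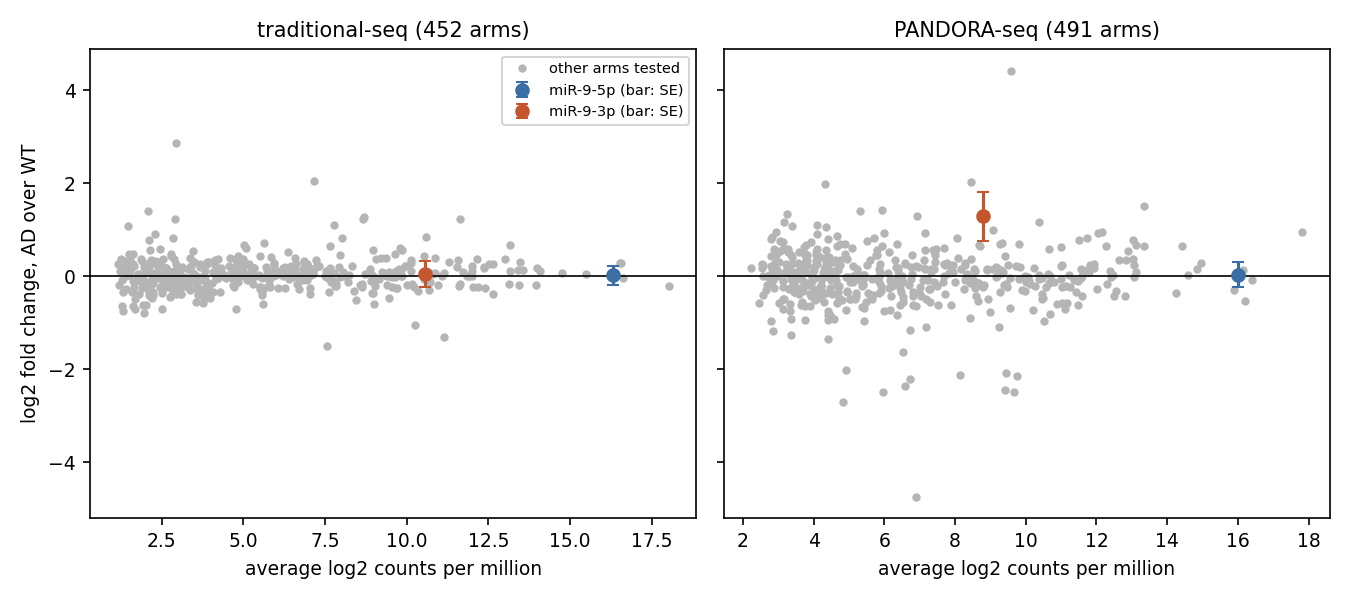
Log2 fold change of AD over WT against average log2 CPM for every arm tested in traditional-seq (452) and PANDORA-seq (491), from edgeR, with miR-9-5p and miR-9-3p in colour and their SE as bars. Both miR-9 arms sit near 0 in traditional-seq. In PANDORA-seq miR-9-5p sits near 0 and miR-9-3p at 1.29 ± 0.53.

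Single miR-9 sequences gave the same picture. The reads fell into 312 distinct sequences, 237 of the 5p and 75 of the 3p arm. In traditional-seq 21 miR-9-5p and 12 miR-9-3p sequences were abundant enough to test, and 0 were called, beside 0 of 1925 over all hairpin sequences (0% called). None of these 33 had an unadjusted p under 0.05, while 20 of the 1925 did. In PANDORA-seq 25 and 6 were tested and 0 were called, beside 39 of 3449 over all hairpin sequences (1.13%) by edgeR's quasi-likelihood test. The likelihood ratio test and DESeq2 also called 0 miR-9 sequences. Of the PANDORA-seq sequences, 3 of the 5p and 4 of the 3p arm had an unadjusted p under 0.05, beside 381 of all 3449, with a smallest edgeR adjusted p of 0.347 and 0.345. The log2 fold changes of the 6 miR-9-3p sequences ran from 0.64 to 1.45, all higher in AD by value, and those of the 25 miR-9-5p sequences from -0.26 to 1.54 with a median of 0.31. Without AD replicate 1 the same fit gave the 6 miR-9-3p sequences tested -0.089 to 0.69, with 0 at an unadjusted p under 0.05, and without AD replicates 1 and 3 it gave the 7 tested 0.057 to 0.78, with 2. For the miR-9-5p sequences it gave the 25 tested -0.28 to 1.42 without AD replicate 1, with 1 at an unadjusted p under 0.05, and the 26 tested -1.03 to 1.498 without both, with 3. These sequences come from the same libraries and are no separate evidence. 

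Both miR-9 arms were lower in PANDORA-seq by RPM. miR-9-5p fell from 35765 ± 12525 (SD, n = 14) in traditional-seq to 1881 ± 897 (SD, n = 16) in PANDORA-seq, 20.2-fold in geometric mean, and miR-9-3p from 656 ± 284 to 12.3 ± 14.7 RPM, 72.2-fold. Neither pair of ranges overlapped, and both tests gave p = 2.0e-05, the smallest that the 100000 shuffles of a 2-sided permutation test can give (adjusted p = 2.4e-05 over 13 protocol comparisons). As a share of the hairpin reads, which leaves out reads that match no annotated hairpin, the arms parted. Some annotated hairpins carry the names of other RNA, such as Snord43, whose 3p reads averaged 34.1 nt in PANDORA-seq. Another is Gm44456/n-TSaga9/n-TStga1, whose share of hairpin reads rose by 6.55 on the log2 scale from traditional-seq to PANDORA-seq. Such reads are in the denominator of these shares, and their effect on the miR-9 shares was not tested. miR-9-5p went from 83903 ± 24911 to 65337 ± 22156 per 1000000 hairpin reads, 1.30-fold lower with overlapping ranges (permutation p = 0.0380, adjusted p = 0.0412), and this did not pass within WT alone (exact permutation p = 0.174) or AD alone (exact permutation p = 0.138). miR-9-3p went from 1532 ± 579 to 366 ± 249 per 1000000 hairpin reads, 4.65-fold lower, with 15 of 16 PANDORA-seq libraries below every traditional-seq library (permutation p = 2.0e-05, adjusted p = 2.4e-05). Within WT the log2 difference of the 3p share was -2.54 (exact permutation p = 0.00031) and within AD -1.90 (exact permutation p = 0.00062).

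The arm ratio, which needs no library size, showed this within each library. Traditional-seq held 36.3 to 81.6 miR-9-5p reads for each miR-9-3p read, with a mean of 58.4 ± 14.8 (SD, n = 14), and PANDORA-seq 35.3 to 563, with a mean of 237 ± 120.8 (SD, n = 16). Of the PANDORA-seq libraries 14 lay above every traditional-seq library, and the exceptions were AD replicates 1 and 6, at 35.3 and 60.6. The ratio was 3.57-fold higher in PANDORA-seq (permutation p = 2.0e-05, adjusted p = 2.4e-05), with a log2 difference of 2.18 within WT (exact permutation p = 0.00031), of 1.49 within AD (exact permutation p = 0.0087), and of 1.97 without AD replicates 1 and 3. Between the genotypes it did not differ beyond the spread: the mean was 60.6 ± 17.4 in WT and 56.2 ± 12.7 in AD in traditional-seq (SD, n = 7 each, exact permutation p = 0.672, adjusted p = 0.961). In PANDORA-seq it was 284 ± 125.7 in WT and 190 ± 102 in AD (SD, n = 8 each, exact permutation p = 0.117, adjusted p = 0.913).

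**Figure D3:**
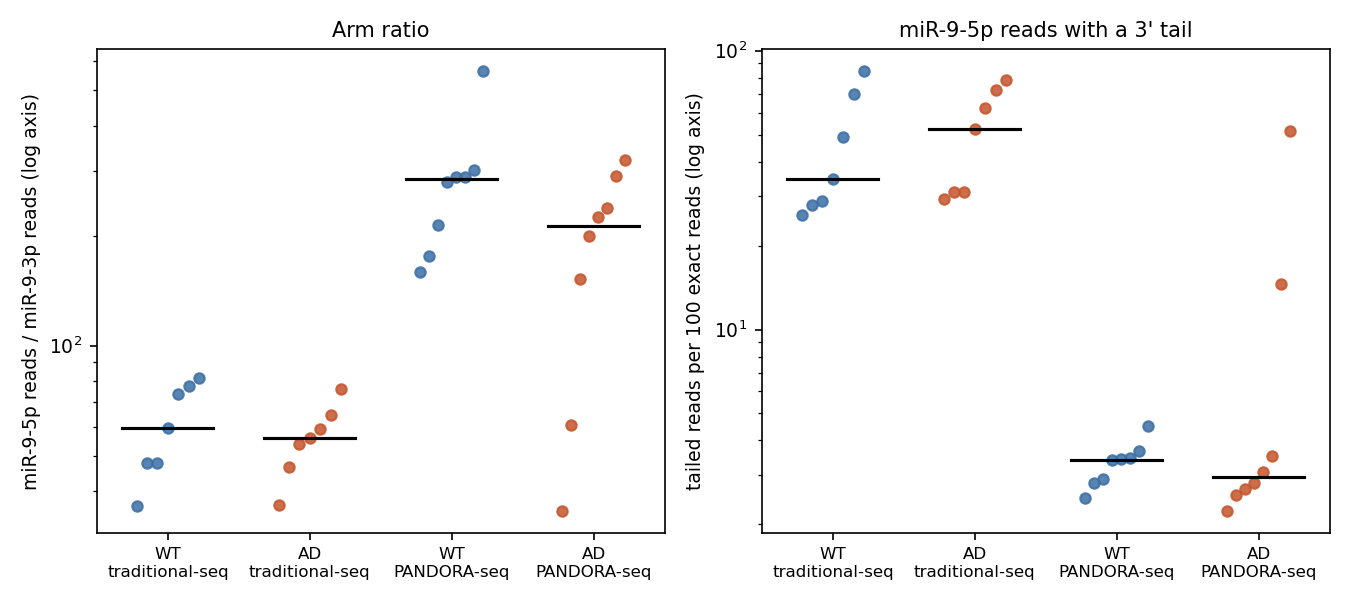
Left, miR-9-5p reads per miR-9-3p read; right, miR-9-5p reads with a 3′ tail per 100 exactly matching miR-9-5p reads, with 1 point per library, a line at the group median and log axes. The ratio is 36.3 to 81.6 in traditional-seq and above that in 14 of 16 PANDORA-seq libraries. Tails run from 25.7 to 84.4 per 100 in traditional-seq and from 2.24 to 4.50 per 100 in PANDORA-seq apart from 2 AD libraries at 14.6 and 51.4.

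Reads of both arms were shorter in PANDORA-seq, at the 3′ end. The mean length of miR-9-5p reads was 22.02 ± 0.12 nt (SD, n = 14) in traditional-seq and 21.08 ± 0.045 nt (SD, n = 16) in PANDORA-seq. That of miR-9-3p reads was 21.32 ± 0.20 and 18.69 ± 0.15 nt. Neither pair of ranges overlapped (permutation p = 2.0e-05, adjusted p = 2.4e-05 for each). Reads of the canonical 21 to 24 nt were 96.7% ± 0.905 of miR-9-5p in traditional-seq and 78.1% ± 4.16 in PANDORA-seq, and 84.1% ± 6.23 against 21.3% ± 4.40 of miR-9-3p, again without overlap and with the same p. The genotypes differed by less than their spread in these measures within each protocol (exact permutation p from 0.0713 to 0.910 for the 8 comparisons). The smallest p belonged to miR-9-5p of 21 to 24 nt in PANDORA-seq, 79.9% ± 3.17 in WT and 76.3% ± 4.42 in AD (adjusted p = 0.913). AD replicate 1 was the lowest there at 66.7% (95% Wilson interval 66.4 to 66.9, counting error only), and the AD mean without replicates 1 and 3 was 78.2% ± 2.02 (SD, n = 6). These are shares of exact reads. They leave out 58443 reads of 21 nt in AD replicate 1 that end in a G the hairpin does not hold (described with the tails).

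The most frequent miR-9-5p sequences are shown with their seed in capitals, since they differ mainly in where they end, and the fourth also in where it starts. The first 5 lines are the most abundant of traditional-seq, and the sixth was chosen after its values were seen.
miR-9-5p start 1 length 22: uCUUUGGUuaucuagcuguaug
miR-9-5p start 1 length 23: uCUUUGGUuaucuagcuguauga
miR-9-5p start 1 length 21: uCUUUGGUuaucuagcuguau
miR-9-5p start 2 length 22: cUUUGGUUaucuagcuguauga
miR-9-5p start 1 length 20: uCUUUGGUuaucuagcugua
miR-9-5p start 1 length 18: uCUUUGGUuaucuagcug

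In traditional-seq the 22-nt form was first with 39.8% ± 4.32 (SD, n = 14) of miR-9-5p reads, followed by the 23-nt reference form with 31.7% ± 4.13 and the 21-nt form with 21.7% ± 5.75. In PANDORA-seq the 21-nt form led with 44.7% ± 6.81 (SD, n = 16), the 22-nt form had 29.3% ± 3.31 and the 20-nt form 16.3% ± 3.33, against 1.67% ± 0.30 in traditional-seq. The 23-nt reference form was down to 3.46% ± 0.52. The 18-nt form was 2.68% ± 0.70 of the arm in PANDORA-seq and 0.0019% ± 0.00076 in traditional-seq. All but 1 of the 6 forms keep the reference 5′ end and therefore the seed CUUUGGU. The form that starts at base 2, whose seed is shifted by 1 base, was 2.33% ± 1.26 of the arm in traditional-seq and 0.145% ± 0.050 in PANDORA-seq. Over all lengths, 96.2% ± 1.38 of miR-9-5p reads had the reference 5′ end in traditional-seq and 98.9% ± 0.175 in PANDORA-seq, and every PANDORA-seq library lay above every traditional-seq library (permutation p = 2.0e-05, adjusted p = 2.4e-05).

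Within PANDORA-seq these shares were also compared between the genotypes, a comparison chosen after their values were seen. The 22-nt form was 27.1% ± 2.04 in WT (24.9% to 30.3%) and 31.5% ± 2.93 in AD (27.9% to 36.8%, SD, n = 8 each), with an exact permutation p = 0.0039 and an adjusted p = 0.0788 over the 26 comparisons of the 13 printed exact sequences of both arms in both protocols. The 21-nt form was 48.6% ± 3.73 in WT (43.9% to 54.0%) and 40.8% ± 7.14 in AD (25.02% to 46.1%), with an exact permutation p = 0.0061 and an adjusted p = 0.0788. The 21-nt reads of AD replicates 1 and 3 that end in a G the hairpin does not hold are not in these shares. The 18-nt form was 2.29% ± 0.40 and 3.06% ± 0.74 (exact permutation p = 0.0242, adjusted p = 0.210). The genotypes overlapped in each of the 3 forms, and 0 of the 26 comparisons passed the adjusted test, while these 3 had an unadjusted p under 0.05. Without AD replicates 1 and 3 the AD means were 30.3%, 44.0% and 2.89%, and the unadjusted exact permutation p was 0.0167, 0.0260 and 0.0932. In traditional-seq the smallest unadjusted exact permutation p over the 13 sequences was 0.111. The shares of an arm sum to a whole, so that these forms are not independent of each other.

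The 3p arm had a second 5′ end and a wider shift of its 3′ end. Its 5 most abundant traditional-seq sequences are followed by the leading 2 of PANDORA-seq, which were chosen after their values were seen.
miR-9-3p start 1 length 22: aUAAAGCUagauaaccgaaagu
miR-9-3p start 2 length 21: uAAAGCUAgauaaccgaaagu
miR-9-3p start 1 length 19: aUAAAGCUagauaaccgaa
miR-9-3p start 2 length 22: uAAAGCUAgauaaccgaaagua
miR-9-3p start 2 length 18: uAAAGCUAgauaaccgaa
miR-9-3p start 1 length 18: aUAAAGCUagauaaccga
miR-9-3p start 2 length 17: uAAAGCUAgauaaccga

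The 22-nt reference form made up 53.7% ± 5.84 (SD, n = 14) of miR-9-3p reads in traditional-seq and 1.30% ± 0.67 (SD, n = 16) in PANDORA-seq, where the 18-nt form took 43.4% ± 5.83, against 0.433% ± 0.19 in traditional-seq. The form that starts at base 2 and ends at the same base 18 went from 0.027% ± 0.028 to 18.4% ± 4.10. By their 3′ ends, 72.5% ± 6.49 of miR-9-3p reads ended at base 22 and 13.7% ± 5.92 at base 19 in traditional-seq. In PANDORA-seq 62.1% ± 5.36 ended at base 18 and 24.5% ± 4.19 at base 21, with 0.474% ± 0.34 at base 19. Each protocol thus had a long and a short common end, and the short one held most reads in PANDORA-seq. Reads that start at base 2, with the seed AAAGCUA in place of UAAAGCU, were 29.9% ± 2.65 of miR-9-3p in traditional-seq and 31.2% ± 6.68 in PANDORA-seq. Reads with the reference 5′ end were 69.8% ± 2.68 and 65.9% ± 6.49 (permutation p = 0.0440, adjusted p = 0.0440), a difference that did not pass within WT alone (exact permutation p = 0.356) or without AD replicates 1 and 3 (permutation p = 0.0667) and had an unadjusted exact permutation p = 0.0183 within AD alone. Its direction depended on the read lengths counted: leaving out reads under 18 nt leaves out the 17-nt form that starts at base 2. Among miR-9-3p reads of 18 to 25 nt, those with the reference 5′ end were 69.9% ± 2.69 (65.7% to 73.7%, SD, n = 14) in traditional-seq and 83.6% ± 4.83 (74.3% to 91.6%, SD, n = 16) in PANDORA-seq. Here PANDORA-seq was higher without overlap, by 13.7 percentage points (unadjusted permutation p = 2.0e-05).

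**Figure D4:**
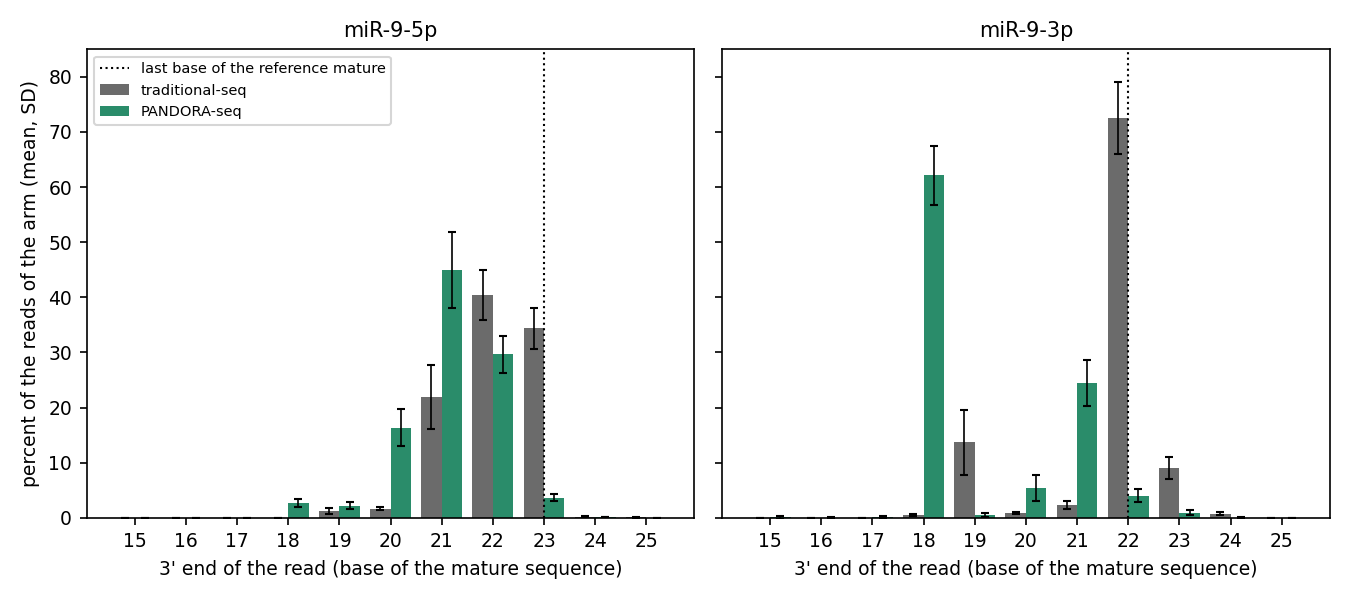
Percent of the reads of each miR-9 arm that end at each base of the mature sequence, bases 15 to 25, as the mean over the 14 traditional-seq and the 16 PANDORA-seq libraries with the SD as bars. A dotted line marks the last base of the reference mature sequence. The miR-9-5p profile moves by about 1 base, with base 21 in place of base 22 as its peak, and the miR-9-3p peak moves from base 22 to base 18.

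Shorter reads in PANDORA-seq were common among miRNA arms, and miR-9-5p lay in the middle of them. Of 133 arms with at least 100 reads in every library, 117 had a shorter mean length in PANDORA-seq, with a median difference of -0.86 nt and quartiles of -1.02 and -0.61 nt. The miR-9-5p difference of -0.94 nt lay between the quartiles, and 45 arms shortened more. The miR-9-3p difference of -2.64 nt was the lowest of the 133. The share of hairpin reads changed by -0.38 on the log2 scale for miR-9-5p and by -2.22 for miR-9-3p, with quartiles of -0.90 and 2.37 over the same arms, and 13 arms fell further than miR-9-3p. This is a description over arms that share the same libraries, with no test. The arms of miR-124, another neuronal miRNA with 3 hairpins, showed a different course for its main arm, Mir124a-1/Mir124a-2/Mir124a-3 3p: its reads shortened by -1.37 nt and its share rose by 2.59 on the log2 scale.

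**Figure D5:**
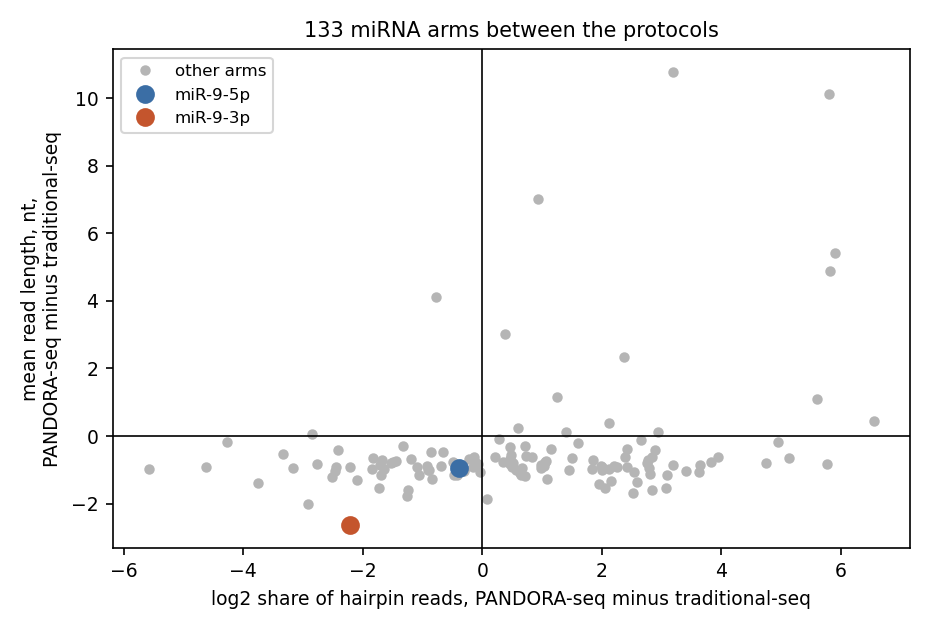
Mean read length (nt) against log2 share of hairpin reads, each as the difference of PANDORA-seq minus traditional-seq, for 133 miRNA arms (grey points). miR-9-5p lies within the main band at -0.94 nt, and miR-9-3p lies below all other arms at -2.64 nt and at -2.22 on the log2 share.

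Reads with a 3′ tail, in which at least 18 exact bases are followed by 1 to 3 bases that the hairpin does not hold, were not part of the exact counts and were taken up separately. This rule does not tell an added base from a changed or a missing one. In traditional-seq there were 25.7 to 84.4 tailed for each 100 exact miR-9-5p reads, with a mean of 48.4 ± 21.3 (SD, n = 14). In PANDORA-seq there were 2.24 to 51.4, with a mean of 6.85 ± 12.2 (SD, n = 16). Without AD replicates 1 and 3 the PANDORA-seq mean was 3.11 ± 0.59 (SD, n = 14) and the ranges did not overlap. Over all libraries the log2 difference was -3.46 (permutation p = 2.0e-05, adjusted p = 2.4e-05). Over all hairpins the corresponding values were 48.5 ± 7.65 and 8.66 ± 1.37 per 100. For miR-9-3p, tails were rarer, at 13.7 ± 3.96 and 0.832 ± 0.76 per 100 exact reads, and the ranges of the protocols did not overlap (permutation p = 2.0e-05, adjusted p = 2.4e-05). Tails made only of U, read as T, were 64.6% ± 11.4 of the miR-9-5p tails in traditional-seq. Tail counts did not differ between the genotypes beyond the spread of the libraries. For miR-9-5p in traditional-seq they were 45.9 ± 23.2 per 100 in WT and 51.0 ± 20.9 in AD (exact permutation p = 0.587, adjusted p = 0.961).

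The most frequent tailed sequences are printed with the tail in capitals, because the tail base set 2 libraries apart. The first and the second are the leading tailed reads of traditional-seq, and the third was chosen after its values were seen.
22 bases plus UU: ucuuugguuaucuagcuguaugUU
22 bases plus U: ucuuugguuaucuagcuguaugU
20 bases plus G: ucuuugguuaucuagcuguaG

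The 22-base form with UU made up 20.8 ± 14.9 per 100 exact reads (SD, n = 14) in traditional-seq, and that with U 7.97 ± 2.19. In PANDORA-seq the form with U was 1.55 ± 0.54 per 100 (SD, n = 16). The 20-base form with G was present at 43.03 per 100 exact reads in AD PANDORA-seq replicate 1 and at 10.4 per 100 in replicate 3. In the other 14 PANDORA-seq libraries it was at 0.0063 to 0.038 per 100, and in traditional-seq at 0.150 to 0.430 per 100. Tails of G only were 86.8% of the tailed miR-9-5p reads in replicate 1 (95% Wilson interval 86.6 to 87.1) and 73.1% in replicate 3 (95% Wilson interval 71.8 to 74.3), against 2.59% to 4.12% in the other PANDORA-seq libraries. Over the hairpins other than miR-9, tailed reads were 9.87 per 100 exact reads in replicate 1, within the 7.51 to 10.1 of the other 14 libraries, and 11.6 per 100 in replicate 3, above them. The tail bases of these other hairpins were not recorded, so whether G tails also rose there is not known. The groups of WT and AD PANDORA-seq libraries overlapped in tails per 100 (exact permutation p = 0.444, adjusted p = 0.961), with a mean of 3.33 ± 0.62 in WT and of 10.4 ± 17.1 in AD, or 2.81 ± 0.45 in AD without replicates 1 and 3 (SD, n = 6).

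By its number of reads, miR-9-5p was among the most abundant of the 1865 arms with a read. Its rank was 2 to 5 with a median of 4 over the traditional-seq libraries and 2 to 9 with a median of 5 over the PANDORA-seq libraries. miR-9-3p ranked 35 to 72 (median 49) and 49 to 197 (median 133). For comparison, Mir124a-1/Mir124a-2/Mir124a-3 3p was at 423 ± 276 RPM in WT and 321 ± 151 RPM in AD in traditional-seq (SD, n = 7 each), and at 99.4 ± 34.6 and 175 ± 81.5 RPM in PANDORA-seq (SD, n = 8 each). Its log2 fold change in the fit of all PANDORA-seq arms was 0.65 ± 0.27 (SE, edgeR adjusted p = 0.321). Of 31 arms of the brain-enriched miRNAs miR-124, miR-128, miR-129, miR-132, miR-137, miR-138, miR-153, miR-212, miR-218, miR-219 and miR-338, 24 could be tested in traditional-seq and 22 in PANDORA-seq, and 0 were called in either by edgeR, with a smallest adjusted p of 0.999 and 0.310. Over all arms 0% were called in traditional-seq and 0.204% in PANDORA-seq, where the smallest edgeR adjusted p was 0.00396, so that 0 calls in a list of this size do not set it apart. Their median log2 fold change was -0.13 in traditional-seq, beside 0.02 for all arms, and -0.15 in PANDORA-seq, beside -0.02.

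The arms whose log2 CPM followed miR-9-5p most closely across libraries were not the same in the protocols. In the 14 traditional-seq libraries these were miR-592-5p (Pearson's r = 0.93), miR-30e-5p (0.91) and miR-29a-3p (0.87). In the 16 PANDORA-seq libraries they were let-7g-5p/let-7i-5p (0.77), miR-101a-3p/miR-101b-3p (0.75) and miR-872-5p (0.75). The points of each correlation share their libraries, normalization and depth, and they are a description with no test.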

How the data were processed

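For each library the authors deposited a table of distinct sequences with their lengths and read counts after adapter removal, without normalization. The deposited counts were used as they stand. The authors annotated the raw reads with SPORTS1.1, and their processing notes name mm39. Here sequences of 15 to 45 nt (up to 42 nt in traditional-seq) were matched whole, sense and without mismatch, to GENCODE M21 hairpins (GRCm38), and mature sequences were taken from RefSeq (GRCm38.p6), which held the same 3 miR-9 hairpins. A read went to the 5p or 3p arm by its midpoint. Hairpin arms that share 18 bases were 1 arm unit, and reads that matched several units were left out. RPM is reads per 1000000 reads of the library.

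Single measures were compared between genotypes by exact permutation and between protocols by 100000 shuffles, with Benjamini-Hochberg adjustment. Arms and sequences were fitted with edgeR 4.0.16 in R 4.3.3 (TMM, filterByExpr with smallest count 10 and smallest total 15, quasi-likelihood test) and, as alternatives, its likelihood ratio test and DESeq2 1.42.0. Tests were checked on simulated counts: of the features changed 8-fold and tested, 187 of 190 arms were called in traditional-seq and 182 of 182 in PANDORA-seq, and 163 of 169 and 158 of 161 sequences, with 3, 3, 2 and 4 unchanged features called. Smaller changes, of the size seen for miR-9-3p between the genotypes, were not simulated. Reads carry no molecular identifiers, so intervals cover counting error only. Named items were the 3 hairpins, their arms, the 5 most abundant traditional-seq sequences per arm, the brain-enriched list and the 3 arms most like miR-9-5p. Members and lists were chosen with earlier results of these data known. Replicate numbers were not used as pairs in the main tests. Correlations of deviations between WT and AD libraries of equal number ran from -0.45 to 0.37 in PANDORA-seq (2 of 8 over 0.1). In traditional-seq they ran from -0.44 to 0.39 (2 of 7 over 0.1). These correlations cannot exclude that libraries of equal number share a batch. A code in the file names recurs in both protocols for 14 libraries of each, and whether a code stands for 1 mouse is not stated, so the protocol tests treated libraries as independent.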

Additional observations from a re-analysis of the deposited data

Results flagged for a closer look

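In 7 of 52 group-wise checks 1 library lay far from the others of its group, by the gap to its nearest neighbour relative to the range of the group. For normally distributed values chance gives about 1 in 20 such groups. Levels, ratios and tails were checked here without a log2 scale, so that rate need not hold for them. AD PANDORA-seq replicate 1 stood apart in 3 of the 7: miR-9-3p was at 63.5 RPM against 1.91 to 21.4 RPM in the other 7 AD libraries, tailed miR-9-5p reads were at 51.4 per 100 exact reads against 2.24 to 14.6, and tailed miR-9-3p reads were at 3.02 per 100 against 0.294 to 1.24. In AD PANDORA-seq replicate 5 the mean length of miR-9-5p reads was 21.16 nt, against 21.03 to 21.08 nt in the others. In WT PANDORA-seq replicate 6 the 5p to 3p ratio was 563, against 159 to 302. In WT PANDORA-seq replicate 7 tailed miR-9-3p reads were at 1.97 per 100 exact reads, against 0 to 0.800, on 152 exact miR-9-3p reads. In WT traditional-seq replicate 6, 94.2% of miR-9-5p reads had the reference 5′ end (95% Wilson interval 94.1 to 94.3), against 96.0% to 97.3% in the others.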

How the results depend on the processing

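Of 411 recomputed values of 21 results, 39 changed sign, 9 moved, 2 passed a threshold they had missed and 3 no longer passed. The other 358 kept their direction and their side of the threshold or, for counts of arms or sequences called, stayed equal or of similar size. The 9 that moved were such counts that did not. Of the 39, 38 were in log2 differences between genotypes of miR-9-5p, and in traditional-seq of miR-9-3p and the ratio. The other was between protocols: the share of miR-9-3p reads with the reference 5′ end, lower in PANDORA-seq at -3.89 percentage points, was at 13.7 with reads of 18 to 25 nt only. It no longer passed within WT (-3.41), paired by file-name code (-3.81) or without AD replicates 1 and 3 (-3.80), all chosen after seeing the data. The 3 other protocol comparisons recomputed (the ratio, and miR-9-5p of 21 to 24 nt and with the reference 5′ end) had 0 sign changes. For miR-9-5p in PANDORA-seq, reads of 15 to 40 nt as denominator gave -0.0064 and hairpin reads as denominator -0.12. For miR-9-3p in traditional-seq, hairpin reads as denominator gave 0.015 and adding tailed reads 0.0028. In the fit of all traditional-seq arms, miR-9-5p was at -0.035 with DESeq2 and with its size factors in edgeR, -0.047 with total reads as library size, -0.015 with a loose filter and -0.0092 with reads of 18 to 25 nt. miR-9-3p was at -0.011, -0.011 and -0.080 in the first 3 of these. The cause was not tested.

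With the replicate number as a block, miR-9-5p in the fit of all arms was at -0.014 in traditional-seq and -0.0012 in PANDORA-seq and miR-9-3p at 0.80 in PANDORA-seq, and arms called were 0 and 1 and sequences called 0 and 34. Sign flips within pairs of equal number gave an exact p = 0.156 for miR-9-3p in PANDORA-seq. The block changed no call of a miR-9 arm or sequence and lowered the count of PANDORA-seq sequences called from 39 to 34.

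Arms called in PANDORA-seq were 4 with the likelihood ratio test, 5 with DESeq2, 0 with total reads as library size and 0 with reads of 18 to 25 nt, and sequences called were 63, 75 and, with a loose filter, 102. No miR-9 arm or sequence was called in any of these. The median of all PANDORA-seq arms moved from -0.02 to 0.16 (log2) with total reads as library size.

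Leaving out 1 library at a time gave log2 differences of -0.23 to 0.015 (miR-9-5p) and -0.22 to 0.18 (miR-9-3p) in traditional-seq and of -0.026 to 0.41 and 0.62 to 1.34 in PANDORA-seq. For the ratio it gave -0.20 to 0.010 and -0.93 to -0.47. In the fit of all arms it gave -0.14 to 0.058 and -0.12 to 0.19 in traditional-seq and -0.057 to 0.22 and 0.53 to 1.504 in PANDORA-seq, where arms called were 1 to 2 (2 without AD replicate 5) and sequences 31 to 50. In traditional-seq they were 0 to 1 (1 without WT replicate 5) and 0. For the difference of the genotype effect between the protocols it gave 0.020 to 0.42 for miR-9-5p and 0.60 (without AD PANDORA-seq replicate 1) to 1.66 for miR-9-3p, with 0 arms called. That series and leaving out AD PANDORA-seq replicates 1 and 3 together were chosen after seeing the data. The latter gave 0.99 for miR-9-3p RPM, and its unadjusted exact permutation p = 0.0373 was over 1 of 26 comparisons.

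In PANDORA-seq miR-9-3p rests on 105 to 3847 reads per library, and its tails rest on fewer reads still, which limits what can be read from them.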
